A study of Mus musculus with 6 samples.

Results

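The Wnt pathway genes of freshly isolated muscle stem cells (MuSCs) were examined in libraries from control and Taf4asKO mice. A gene was a member when its symbol named a Wnt ligand, a Frizzled receptor (Fzd), a secreted Frizzled-related protein (Sfrp1 to Sfrp5), a Dickkopf protein (Dkk) or an R-spondin (Rspo), or was one of Lrp5, Lrp6, Lgr4, Lgr5, Rnf43, Znrf3, Ctnnb1, Apc, Axin1, Axin2, Lef1, Tcf7, Tcf7l1, Tcf7l2, Dvl1, Dvl2, Dvl3, Bcl9, Bcl9l and Nkd1, and when its mean over the 6 libraries was at least 5. The rule used no contrast between the groups and found 49 of the 22081 genes in the table and of the 18562 genes at or above that mean. Of 50 matching symbols, Dkk4 was left out at a mean of 1.83, and the lowest members were Rnf43 at 5.17, Wnt7b at 5.67 and Wnt16 at 6.67.

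Total RNA of sorted MuSCs was sequenced in 3 libraries labelled Control and 3 labelled Taf4asKO, all from the C57BL/6 strain, to compare the transcriptome with and without the induced deletion in Taf4. Taf4asKO mice carried Pax7CreERT and homozygous floxed Taf4a (now Taf4) and had received tamoxifen, so that Cre acts in cells that express Pax7. Control libraries carry WT in their titles, while the study describes its controls as littermates with homozygous floxed Taf4a, either with or without the Cre allele. Which of these were used here and whether they had tamoxifen is not given in the sources used here. For most of the MuSC experiments, some with these libraries, isolation took place 4 to 6 weeks after tamoxifen. The study used mice of both sexes that were 8 to 20 weeks old when treated, and sorted cells for Integrin alpha 7 or a Pax7-zsGreen reporter after removal of SCA1+, CD45+ and CD31+ cells. The labels do not say whether a library came from 1 animal or from pooled animals, so p-values measure the spread between these libraries only.

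The values, called normalized counts here, are rounded reads per gene after division by each library's size factor. They summed to between 12338676 and 14551732 per library. Taf4 itself measured 613, 534 and 478 in the control libraries against 631, 565 and 574 in those labelled Taf4asKO (log2 fold change 0.13, SE 0.12, adjusted p = 0.524). The groups overlapped, and because the value sums all exons while only a pair is floxed, it does not check the deletion, so directions below follow the labels. All 10 MuSC markers were detected, with sums of 57943 to 61488 in control and 53910 to 57100 in Taf4asKO. The 12 markers of fibro-adipogenic progenitors, mesenchymal cells that the gate was meant to remove, summed to 69935 to 99969 and 58697 to 83164. Col3a1 and Dpt set this order, and without them the other 10 markers summed to 21433, 35187 and 49684 in control and 45002, 64678 and 65314 in Taf4asKO. Single levels differed widely, with Gsn at 13977 to 29268 and Col1a1 at 5792 to 32958 normalized counts per library. Ly6a had 2 to 14, Clec3b 6 to 71, Pi16 26 to 117 and Pdgfra 49 to 247. A sum thus follows its highest genes and does not measure the share of a cell type.

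Wnt ligands are secreted glycoproteins that bind a Frizzled receptor and the co-receptor Lrp5 or Lrp6. Receptor engagement recruits Dishevelled and Axin, halts the Apc and Axin complex that marks beta-catenin (Ctnnb1) for degradation, and lets beta-catenin act with TCF and LEF proteins on target genes. R-spondins acting through Lgr receptors keep Frizzled proteins on the surface by removing the ubiquitin ligases Znrf3 and Rnf43. Sfrp and Dkk proteins are grouped here as secreted antagonists, a role that is not settled for every Dkk protein. In muscle the pathway is known for its parts in MuSC quiescence, self-renewal and commitment during regeneration.

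Members called higher in Taf4asKO were the receptors Fzd8 and Fzd1, the co-receptor Lrp6, Ctnnb1, the destruction complex scaffold Axin2, the Dishevelled-binding inhibitor Nkd1 and the antagonist Sfrp1, and Znrf3 was called lower. A call required a limma adjusted p under 0.05 and a change of at least 1.3-fold. These 8 of 49 members (16.3%) stood beside 12.6% of all tested genes. By direction, 7 members (14.3%) were higher beside 5.93% of all genes, and 1 (2.04%) was lower beside 6.71%. The lower call was absent with total-count scaling, which left 7 higher and 0 lower by the same limma test. Upper-quartile scaling left 4 higher (8.16%, beside 5.06% of all genes) and 1 lower (2.04%, beside 7.66%). The median log2 fold change was 0.20 over the members and 0.00 over all tested genes, and 32 members had a positive value.

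The calls fell among the members with higher values. All 8 were among the 29 members with a mean of at least 100 (27.6%, beside 18.9% of all genes at that level), with 7 higher beside 9.48% and 1 lower beside 9.45%. This split was chosen after the values were seen, and Nkd1, at an overall mean of 102 and a control mean of 70.7, lay above it only through the Taf4asKO libraries. Under a mean of 100, limma and limma-voom each called 0 of 20 members, beside 6.31% of all genes at that level by limma, and 1 had an unadjusted p under 0.05, beside 19.8%. Control and Taf4asKO libraries did not overlap in 14 members (28.6%), beside 33% of all tested genes. Of these, 12 were higher in Taf4asKO, beside 16.6% of all genes, and 2 were lower, beside 16.4%. Another fit paired libraries by replicate number, a pairing that the labels do not state. It called 10 members (20.4%, beside 18.1% of all genes) by adding Wnt4 and Fzd9. That made 8 higher, beside 9.09% of all genes, and 2 lower, beside 8.98%. The member count fell to 2, 2 and 1 without Taf4asKO replicates 1, 2 and 3, and to 5 without control replicate 1. As shares of the members these were 4.08%, 4.08%, 2.04% and 10.2%, beside 6.98%, 5.18%, 5.17% and 9.2% of all genes, so that without any 1 Taf4asKO library the members' share lay below that of all genes, as it did without control replicate 2 (14.3% beside 16.8%). Higher calls alone were 4.08%, 4.08% and 2.04% of members without Taf4asKO replicates 1, 2 and 3, beside 2.72%, 1.84% and 1.97% of all genes.

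**Figure D1:**
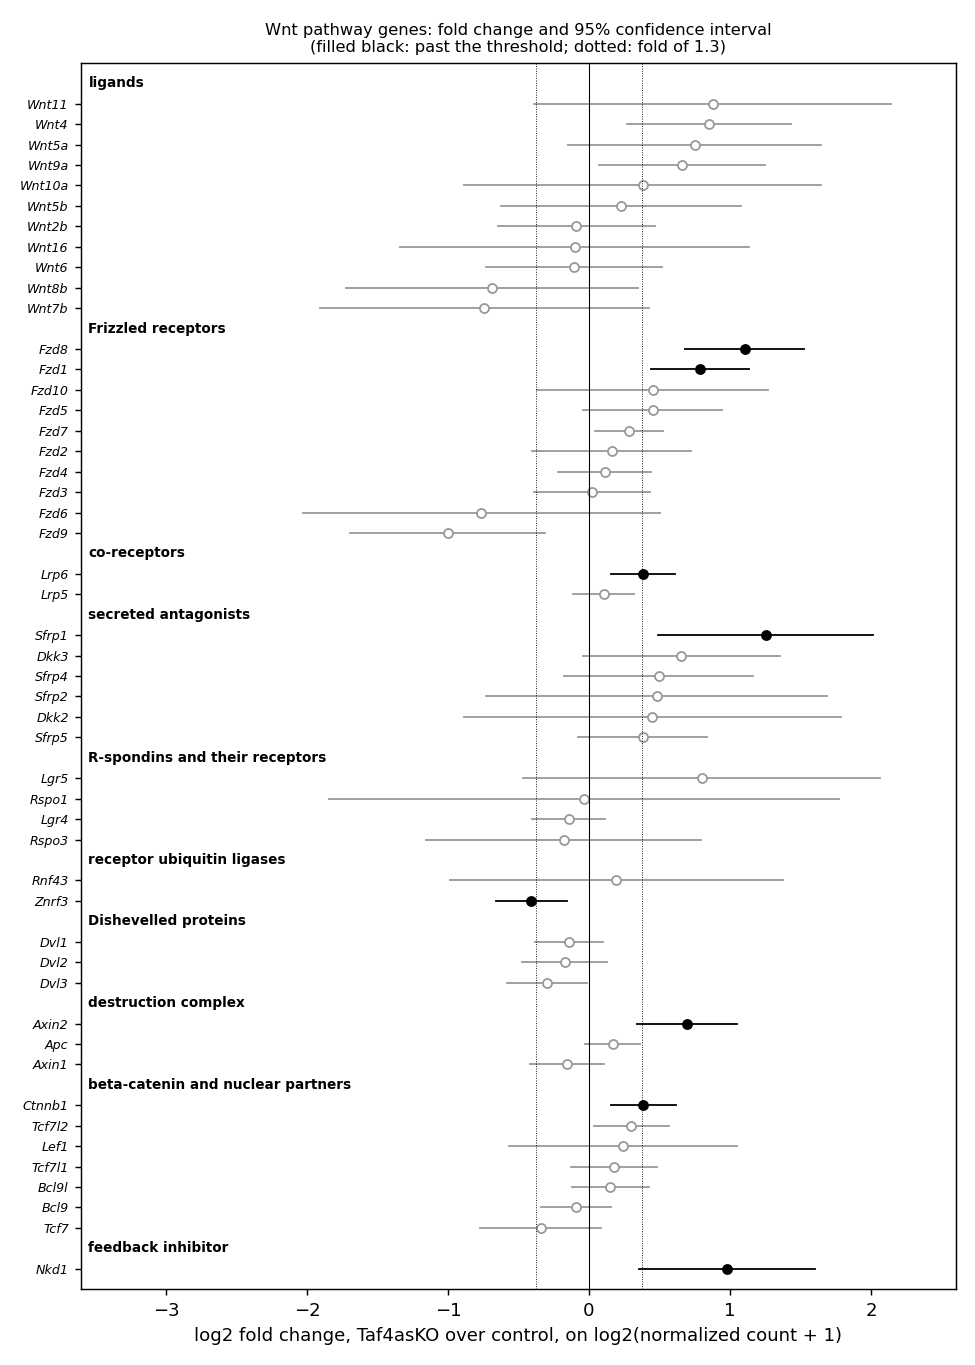
Log2 fold change of Taf4asKO over control (x axis, on log2 of the normalized count + 1) for the 49 members grouped by role, with 95% confidence intervals from limma, filled black where the gene was called, and dotted lines at a change of 1.3-fold. The 8 filled points run from -0.41 for Znrf3 to 1.25 for Sfrp1, while the widest interval, of the low gene Rspo1, runs from -1.84 to 1.77.

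**Figure D2:**
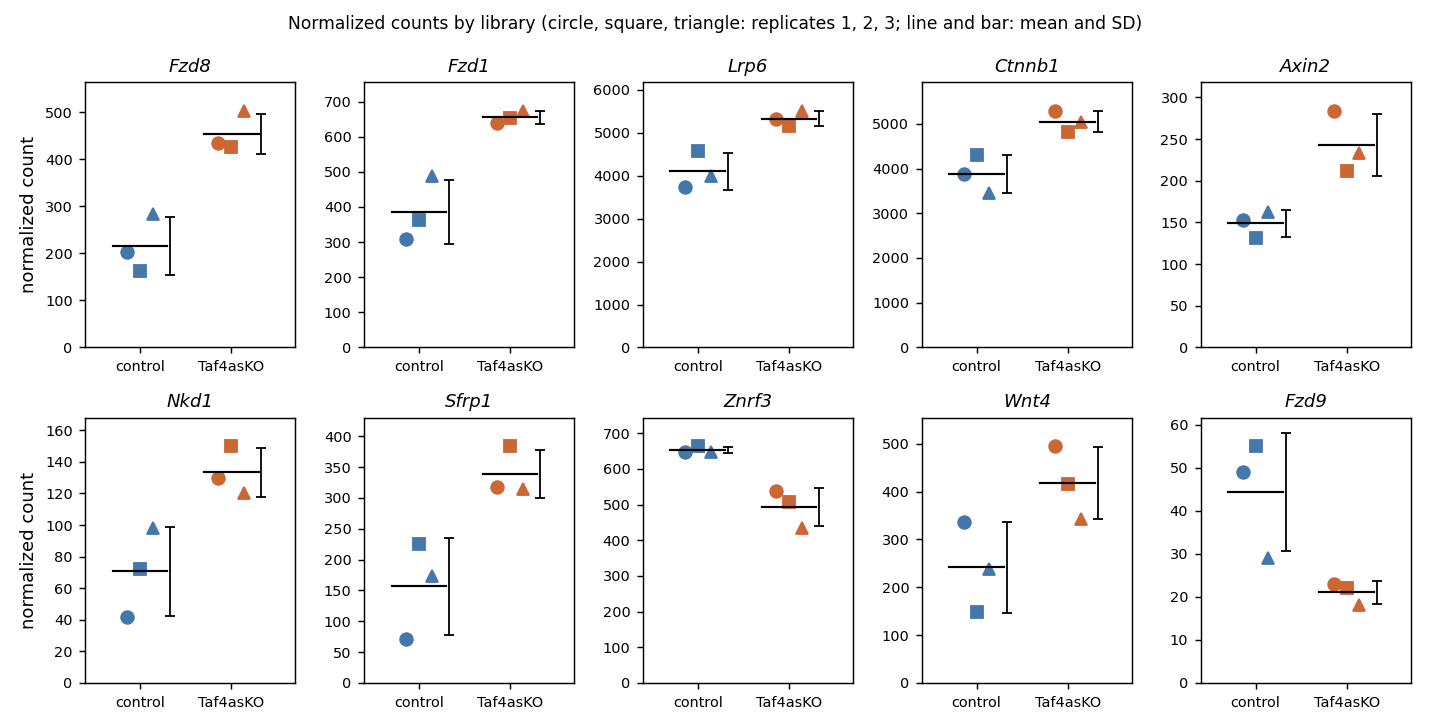
Normalized counts (y axis from 0) of the 8 called members and of Wnt4 and Fzd9, which were called with the pairing and not without it in the 6 libraries, by library, with group mean and SD. Control and Taf4asKO libraries do not overlap in any of the 10 panels, for example 162 to 284 against 426 to 503 for Fzd8.

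Between genes, levels were compared as normalized counts per kilobase (kb) of exon. In control libraries Ctnnb1 stood first at 748 ± 82.2 per kb (SD, n = 3), followed by Sfrp5 at 388 ± 99.3 and Lrp6 at 300 ± 31.5. The gap between Sfrp5 and Lrp6 lay within their spread. Dvl1 (247), Bcl9l (235), Fzd4 (225) and Axin1 (204 per kb) came next. At the other end stood Lef1 at 1.1, Lgr5 at 1.04 and Rnf43 at 0.762 per kb. In the 9 roles with more than 1 member, the gene with the highest level was the same in all 6 libraries, namely Wnt4, Fzd4, Lrp6, Sfrp5, Lgr4, Znrf3, Dvl1, Axin1 and Ctnnb1, although Wnt4 and Wnt9a were nearly tied in control replicate 2 (26.9% and 26.5% of the summed ligand level).

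**Figure D3:**
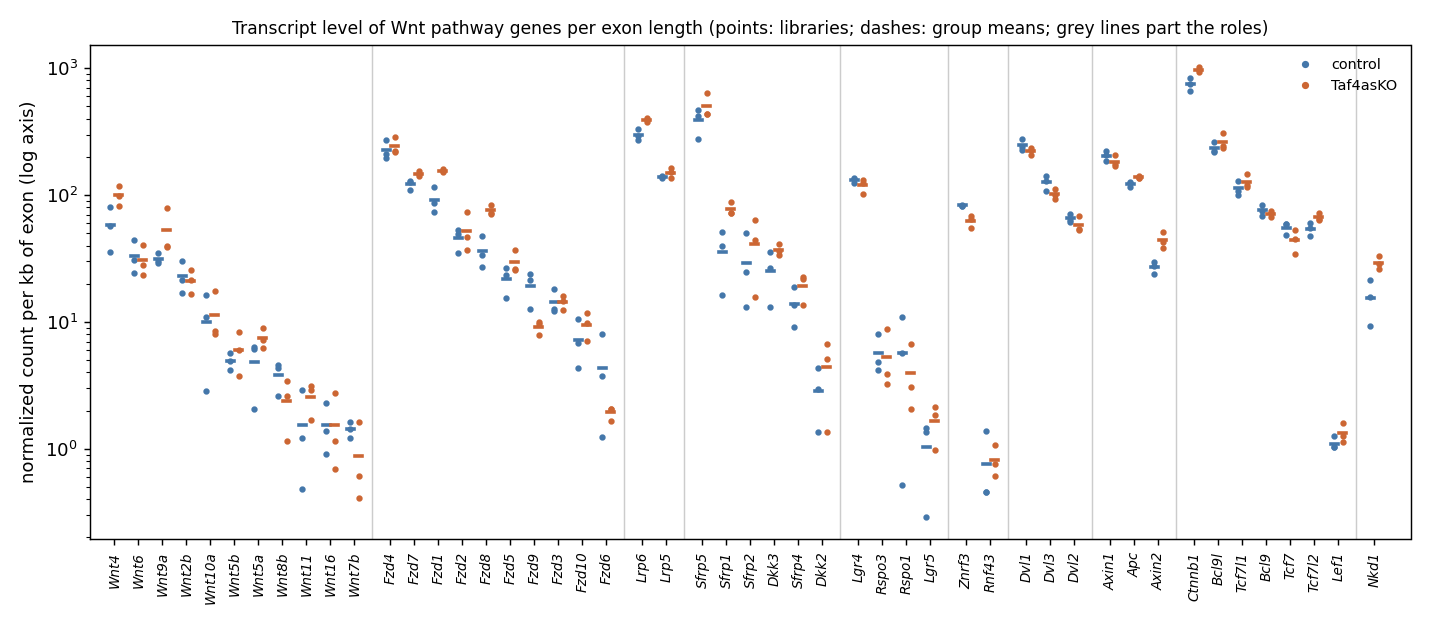
Normalized count per kb of exon (log axis) of the 49 members in each library (points) with group means (dashes), ordered within roles that are parted by grey lines. Ctnnb1 is highest at 748 per kb in control and 972 in Taf4asKO, and Rnf43 lowest at 0.762 in control.

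Ligands gave 0 calls among 11 members by limma and by limma-voom, beside 12.6% of all genes by limma, with 2 at an unadjusted p under 0.05, beside 28.8%. With so few members these counts do not set the ligands apart. Wnt4, a ligand made by muscle fibres and known to act on MuSC quiescence (ENSMUSG00000036856, chr4:137277489-137299726 in mm10), was the highest at normalized counts of 337, 148 and 239 in control against 495, 415 and 343 in Taf4asKO. All Taf4asKO libraries lay above all control libraries, though the lowest only narrowly. The log2 fold change was 0.85 (SE 0.26, adjusted p = 0.0583). With the pairing the adjusted p was 0.0072, and without control replicate 1 the log2 fold change was 1.13 (adjusted p = 0.0123), while without control replicate 2 it was 0.54 (adjusted p = 0.0837), within 0.0072 to 0.182 over all alternatives. Wnt4 held 32.5 ± 7.26% of the summed ligand level per kb in control and 42.5 ± 3.64% in Taf4asKO. Wnt9a had 97, 116 and 100 and then 265, 131 and 129 normalized counts (log2 fold change 0.66, adjusted p = 0.13), with Taf4asKO replicate 1 far above the other libraries. The other 9 ligands had log2 fold changes of -0.74 to 0.88 with 95% intervals that included 0, and 7 of them had under 40 normalized counts on average in control.

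Fzd8 and Fzd1 were the Frizzled receptors that passed the test. Fzd8, a receptor for canonical Wnt ligands (ENSMUSG00000036904, chromosome 18), had normalized counts of 202, 162 and 284 in control against 434, 426 and 503 in Taf4asKO. The lowest Taf4asKO library lay well above the highest control library. Its log2 fold change was 1.10 (SE 0.19, adjusted p = 0.00525), and the call was kept in all 17 alternatives (adjusted p 0.000333 to 0.0329). Fzd1 (ENSMUSG00000044674, chr5:4753839-4758035) had normalized counts of 309, 363 and 487 in control against 639, 652 and 674 in Taf4asKO. The Taf4asKO libraries sat close together above all control libraries (log2 fold change 0.79, SE 0.16, adjusted p = 0.0104). The Fzd1 call was lost without Taf4asKO replicate 2 (adjusted p = 0.0534) or replicate 3 (adjusted p = 0.0529), with 0.00158 to 0.0534 over all alternatives.

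Fzd4, the receptor for Norrin as well as Wnt ligands, was the most abundant Frizzled by level and did not pass the test. Its normalized counts were 1408, 1305 and 1828 in control against 1499, 1467 and 1926 in Taf4asKO, which overlapped (log2 fold change 0.11, SE 0.15, adjusted p = 0.669). Fzd7, the receptor known to mediate Wnt7a effects on MuSCs, had means of 551 ± 48.6 and 670 ± 28.1 normalized counts without overlap, yet did not reach the threshold (log2 fold change 0.28, adjusted p = 0.115). Fzd9 went the other way, with 49, 55 and 29 in control and 23, 22 and 18 in Taf4asKO. The groups did not overlap. It missed the threshold without the pairing (log2 fold change -1.0, SE 0.31, adjusted p = 0.061), passed it with the pairing (adjusted p = 0.0326) and passed it without control replicate 3 (log2 fold change -1.27, adjusted p = 0.0293), within a range of 0.0293 to 0.198 over all alternatives. The other 5 Frizzled genes, Fzd2, Fzd3, Fzd5, Fzd6 and Fzd10, had log2 fold changes of -0.76 to 0.45, and none was called.

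The make-up of the Frizzled mRNA pool was also computed. Per kb, Fzd8 made up 6.10 ± 1.10% (SD, n = 3) of the summed Frizzled level in control and 10.3 ± 0.568% in Taf4asKO. Fzd1 went from 15.5 ± 1.6% to 21.1 ± 0.693%, and Fzd9 from 3.41 ± 1.34% to 1.24 ± 0.195%. Fzd4 held 38.2 ± 2.87% and 32.7 ± 3.85%, and Fzd7 held 20.8 ± 1.72% and 20.02 ± 1.5%. The shares are described without a test. In control Fzd7 stood at 122 ± 10.7 and Fzd1 at 92.05 ± 21.8 per kb with overlapping libraries. In Taf4asKO the levels were 148 ± 6.20 and 156 ± 4.21 per kb, where the libraries of Fzd7 and Fzd1 overlapped too. The summed Frizzled level was 529 to 678 per kb in control and 709 to 771 in Taf4asKO.

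**Figure D4:**
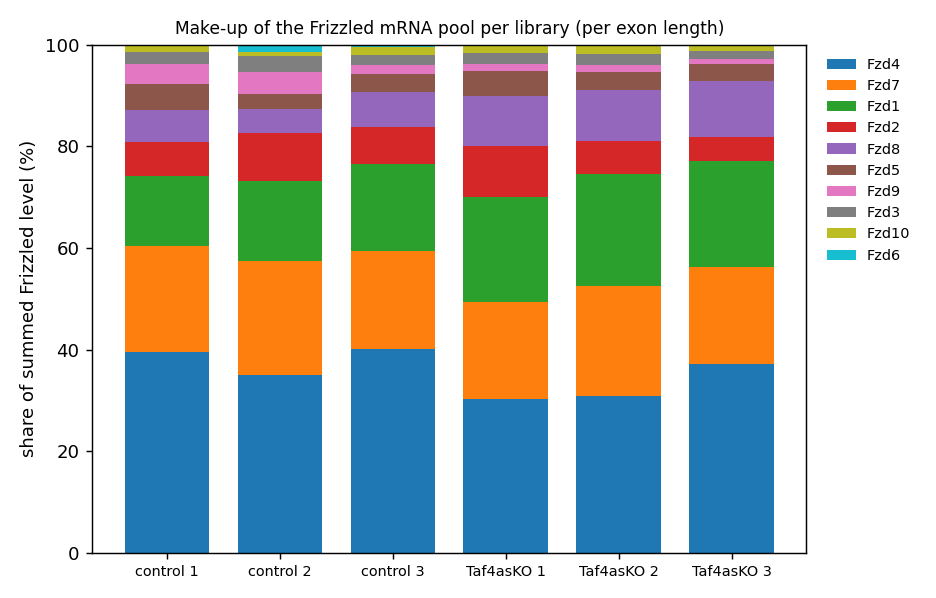
Share of each Frizzled gene (%, per kb of exon) in the summed Frizzled level of each of the 6 libraries. The Fzd8 and Fzd1 segments average 6.10% and 15.5% in control and 10.3% and 21.1% in Taf4asKO, while Fzd4 remains the largest segment in every library.

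Lrp6, the co-receptor that becomes phosphorylated on Wnt binding (ENSMUSG00000030201, chr6:134446476-134566913), had normalized counts of 3727, 4571 and 4002 in control against 5323, 5151 and 5514 in Taf4asKO. The groups did not overlap, with a log2 fold change of 0.38 (SE 0.10, adjusted p = 0.0335) that was just past the fold limit. Its relative Lrp5 had means of 1357 ± 19.0 and 1463 ± 130 and was not called (log2 fold change 0.11, adjusted p = 0.522). Leaving out any library but control replicate 2 ended the Lrp6 call (adjusted p 0.0751 to 0.142), and upper-quartile scaling put its log2 fold change at 0.34, below the fold limit.

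Of the 6 genes grouped as secreted antagonists Sfrp1 was the 1 that was called (16.7%, beside 12.6% of all genes), too few genes to set apart. Sfrp5 held 79.2 ± 4.23% of their summed level per kb in control. Sfrp1, which binds Wnt ligands directly (ENSMUSG00000031548, chr8:23411502-23449632), had normalized counts of 71, 225 and 174 in control against 317, 384 and 315 in Taf4asKO. The groups did not overlap, and control replicate 1 lay far below the other two controls (log2 fold change 1.25, SE 0.34, adjusted p = 0.0389). Without that library the log2 fold change was 0.77 (adjusted p = 0.0205), and the call was lost without Taf4asKO replicate 1, 2 or 3 (adjusted p = 0.0971, 0.143 and 0.102). Sfrp5 had normalized counts of 526, 792 and 891 in control against 1203, 821 and 830 in Taf4asKO, which overlapped (log2 fold change 0.38, SE 0.21, adjusted p = 0.254). Sfrp2, Sfrp4, Dkk2 and Dkk3 had log2 fold changes of 0.45 to 0.66 and were not called.

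Markers of some other cell types differed between the same libraries. The 5 Schwann cell and glia markers summed to 1039, 2262 and 1770 in control and 2370, 3103 and 2984 in Taf4asKO, with Sox10 and Mbp called higher and Ngfr lower. The 6 smooth muscle and pericyte markers summed to 9384 to 14981 and 14259 to 16493, with Rgs5 and Myh11 called higher. The 8 endothelial markers summed to 910 to 1384 and 1485 to 1954, and the 3 immune markers with a value (of 7 listed) to 422 to 538 and 666 to 924, with 0 called in either list. The immune difference came from Lyz2, since Cd68 and Csf1r had log2 fold changes of -0.03 and -0.56. The 6 tendon markers summed to 1994 to 14055 and 7109 to 16215 with 0 called. Of the 12 fibro-adipogenic markers, 10 had positive log2 fold changes (0.54 to 1.54), of which Gsn was called, while Col3a1 and Dpt were called lower. Of the MuSC markers, Vcam1 and Heyl were called higher and Myf5, Cdh15 and Itga7 lower. Of the 10 muscle fibre markers, summing to 2262 to 6107 and 2688 to 3327, Atp2a1 was called lower. Of the members called higher, control replicate 1 was the lowest of the 6 libraries in Sfrp1, Nkd1, Fzd1 and Lrp6, but not in Fzd8, Axin2 or Ctnnb1. Control replicate 1 was also lowest in 6 of the 8 sums, those of MuSC and fibro-adipogenic markers being the exceptions. It was also the lowest library in 10 of the 12 single fibro-adipogenic markers, all but Col3a1 and Dpt. The part of these cells in the Wnt results was not tested, and in bulk samples fewer cells of a type and less RNA per cell cannot be told apart.

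**Figure D5:**
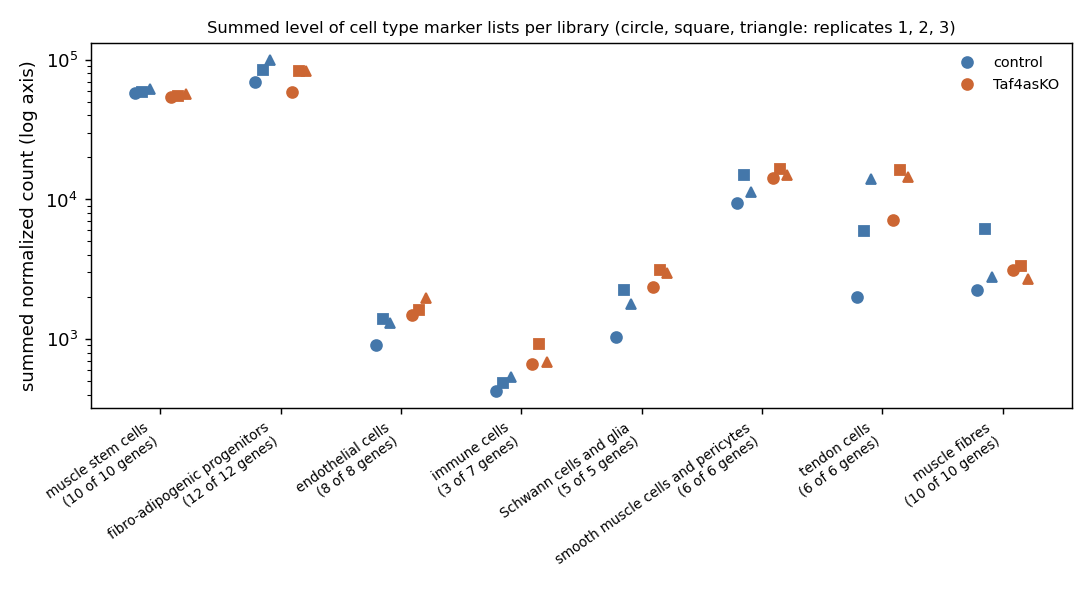
Summed normalized counts (log axis) of 8 cell type marker lists in each library, with symbols for replicates 1 to 3. Schwann and glia markers reach 1039 to 2262 in control and 2370 to 3103 in Taf4asKO, and control replicate 1 has the lowest sum in the 6 lists other than MuSC and fibro-adipogenic markers.

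The R-spondins and their receptors gave 0 calls among 4 members by limma and limma-voom, and 0 at an unadjusted p under 0.05, beside the same 12.6% and 28.8% of all genes, too few members to read as a difference. Lgr4, the receptor that carried 91.6 ± 4.15% of this role's level per kb in control, had normalized counts of 738, 793 and 796 in control against 778, 732 and 605 in Taf4asKO (log2 fold change -0.14, SE 0.12, adjusted p = 0.454). Lgr5, Rspo1 and Rspo3 were at 1 to 27 normalized counts in all libraries, where differences of this size were not detectable. The 3 Dishevelled genes had negative values with 0 called, too few genes to set against the 12.6% of all genes, and 1 had an unadjusted p under 0.05. Dvl1 had normalized counts of 1375, 1199 and 1127 in control against 1180, 1129 and 1037 in Taf4asKO, which overlapped (log2 fold change -0.14, SE 0.11, adjusted p = 0.418). Dvl3 had the lowest adjusted p of the 3 (log2 fold change -0.30, adjusted p = 0.152), and Dvl2 had a log2 fold change of -0.17.

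Both Znrf3 and Nkd1 act against the signal, and they moved in opposite directions. Znrf3, a membrane ubiquitin ligase that targets Frizzled and Lrp6 (ENSMUSG00000041961, chr11:5276324-5444847), had normalized counts of 647, 664 and 648 in control against 539, 508 and 435 in Taf4asKO. Control libraries lay close together and above every Taf4asKO library (log2 fold change -0.41, SE 0.11, adjusted p = 0.0404). It held 99.1% of the ligase level per kb in control, and Rnf43 had 3 to 9 normalized counts per library. The Znrf3 call was lost with total-count scaling (adjusted p = 0.051), with limma-voom (adjusted p = 0.0534) and without any one library except control replicate 2 (adjusted p 0.0574 to 0.184).

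Nkd1, the Naked cuticle homologue that binds Dishevelled (ENSMUSG00000031661, chr8:88521354-88594884), had normalized counts of 42, 72 and 98 in control against 130, 150 and 120 in Taf4asKO. The groups did not overlap (log2 fold change 0.98, SE 0.28, adjusted p = 0.0459). Control replicate 1 was the lowest library, and without it the log2 fold change was 0.65 (adjusted p = 0.0848). The call was kept only without control replicate 3 among the fits that left out a library (adjusted p up to 0.17), and under upper-quartile scaling the adjusted p was 0.0531.

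Among the destruction complex, Axin2 was called and Apc and Axin1 were not. Axin2, a scaffold and itself a standard target of the pathway (ENSMUSG00000000142, chr11:108920349-108950783), had normalized counts of 153, 131 and 163 in control against 284, 212 and 233 in Taf4asKO. The groups did not overlap (log2 fold change 0.70, SE 0.16, adjusted p = 0.0195). The call was lost without Taf4asKO replicate 1 (0.58, adjusted p = 0.0833) or replicate 3 (0.72, adjusted p = 0.0745), with 0.00669 to 0.0833 over all alternatives. Apc, the tumour suppressor scaffold, had 2015, 2059 and 1881 in control and 2280, 2201 and 2208 in Taf4asKO. These did not overlap, but the difference was small (log2 fold change 0.17, SE 0.09, adjusted p = 0.234). Axin1, the scaffold with the highest level per kb, measured 785, 855 and 706 in control and 785, 673 and 647 in Taf4asKO, which overlapped (log2 fold change -0.16, adjusted p = 0.415). Axin2 overlaps exons of Gm11670 on the opposite strand.

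Ctnnb1, which encodes beta-catenin (ENSMUSG00000006932, chr9:120933400-120960507), had normalized counts of 3871, 4313 and 3460 in control against 5292, 4823 and 5032 in Taf4asKO. Again the groups did not overlap (log2 fold change 0.38, SE 0.10, adjusted p = 0.0372). The call was lost without any one library other than control replicate 2 (adjusted p 0.0815 to 0.129), and upper-quartile scaling, where the log2 fold change was 0.35 and below the fold limit, ended it too. Exons of Ctnnb1 overlap Ulk4 on the opposite strand and Mir7090 on the same strand, and the strand setting of the counting is not given in the sources used here. Beta-catenin protein is set mainly by degradation and was not measured here.

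None of the 6 nuclear partners of beta-catenin was called by limma, too few genes to set against the 12.6% of all genes, and 1 of them, Tcf7l2, had an unadjusted p under 0.05. Tcf7l2 came nearest, with means of 478 ± 54.8 and 587 ± 36 normalized counts without overlap (log2 fold change 0.30, adjusted p = 0.128). Tcf7l1, known mostly as a repressor, had a log2 fold change of 0.18 and Tcf7 one of -0.34. Lef1 was at 9 to 14 normalized counts in every library. Bcl9l and Bcl9, which link beta-catenin to Pygopus, had log2 fold changes of 0.15 and -0.09.

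TAF4 is a subunit of TFIID, the complex that assembles at promoters, so the start sites of the 3 called genes whose listed start lies at or near the gene's 5' end are shown. Sequences are RefSeq promoter windows on GRCm38.p6 (the mm10 assembly), from 250 bases before the start site to the 30th transcribed base, 5' to 3' on the gene's strand, with 3 motifs in capitals on either strand. The letters searched for NF-Y, a factor that binds many promoters upstream of the start, were CCAAT. For the SP family, zinc finger proteins that bind GC boxes, the letters searched were GGGCGG. For the TCF and LEF partners of beta-catenin the letters searched were CTTTGAT, where the last base could also be A. Each was also searched as its reverse complement, and matches of different motifs did not overlap in the windows printed.
Axin2, chr11:108920099-108920378, plus strand: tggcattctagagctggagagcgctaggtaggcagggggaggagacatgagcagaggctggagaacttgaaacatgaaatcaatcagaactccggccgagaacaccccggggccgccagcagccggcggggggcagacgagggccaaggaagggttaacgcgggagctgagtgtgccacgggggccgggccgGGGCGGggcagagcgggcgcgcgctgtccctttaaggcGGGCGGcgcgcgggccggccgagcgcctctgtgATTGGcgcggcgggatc
Ctnnb1, chr9:120933150-120933429, plus strand: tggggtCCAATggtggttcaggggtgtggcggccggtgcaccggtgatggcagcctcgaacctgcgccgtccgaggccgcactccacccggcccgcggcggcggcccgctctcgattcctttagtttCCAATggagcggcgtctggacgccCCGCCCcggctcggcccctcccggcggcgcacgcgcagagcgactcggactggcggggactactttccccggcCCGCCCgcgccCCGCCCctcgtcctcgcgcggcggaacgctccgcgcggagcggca
Fzd1, chr5:4758187-4758466, minus strand: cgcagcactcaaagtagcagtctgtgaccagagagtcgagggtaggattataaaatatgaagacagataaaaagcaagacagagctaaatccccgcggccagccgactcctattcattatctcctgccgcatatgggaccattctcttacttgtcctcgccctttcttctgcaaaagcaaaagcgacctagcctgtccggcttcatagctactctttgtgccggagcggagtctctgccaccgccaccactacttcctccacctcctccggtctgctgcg
The Axin2 window held 2 GGGCGG and 1 CCAAT, the latter as its reverse complement at bases 14 to 18 after the start and not upstream. The Ctnnb1 window printed held 2 CCAAT, from bases -244 and -123, and 3 GGGCGG, while the Fzd1 window held none of the 3 motifs. A second listed start of Ctnnb1, 178 bases further into the gene, has an overlapping window with 0 CCAAT. The table gave 41 windows for 31 of the 49 members. Over windows of 300 bases, CCAAT was in 29.3% of member windows, in 37.4% of all 32851 windows and in 37.2% of the 13774 windows of tested coding genes. GGGCGG was in 70.7%, 35.7% and 60.9%, and the TCF letters were in 4.88%, 8.65% and 5.85%. A match is a description of letters and not a bound site.

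Pathway components outside the rule were called in both directions. Of 62 listed genes 61 were tested, 4 were called higher, 3 lower (11.5%, beside 12.6% of all genes) and 54 neither. Wls, which carries Wnt proteins to the cell surface, had normalized counts of 389, 529 and 418 in control against 732, 709 and 690 in Taf4asKO (log2 fold change 0.68, SE 0.13, adjusted p = 0.00801). Gpc3 (0.96), Dact1 (0.72) and Cby1 (0.60 on the log2 scale) were the others called higher. They encode a cell surface glypican, a Dishevelled-binding protein and a beta-catenin antagonist. Ptk7, a co-receptor of planar cell polarity, had 571, 765 and 567 in control and 366, 367 and 329 in Taf4asKO (log2 fold change -0.83, SE 0.14, adjusted p = 0.00453). The relative of Apc named Apc2 (-0.75) and the co-repressor Tle1 (-0.54) were also called lower. The pairing raised this count to 12 (19.7%, beside 18.1% of all genes), with 6 higher and 6 lower. The higher calls fell to 2 without control replicate 1, and to 1, 2 and 1 without Taf4asKO replicates 1, 2 and 3. Higher calls over all genes fell in the same fits from 5.93% to 4.03%, 2.72%, 1.84% and 1.97%. The lower calls fell to 1 without Taf4asKO replicate 3, beside 3.21% of all genes. The kinase genes Gsk3b and Csnk1a1 had log2 fold changes of 0.02 and 0.15.

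Called targets of beta-catenin and TCF fell in both directions. Of 29 listed genes 23 were tested, 8 of them members, with 3 called higher (Axin2, Nkd1 and Fst) and 3 lower (Znrf3, Ccnd1 and Wisp1), or 26.1%, beside 12.6% of all genes. Among the 15 targets that are no members 3 were called (20%, beside 12.6% of all genes). Of these, 1 was higher (6.67%, beside 5.93%) and 2 were lower (13.3%, beside 6.71%). Fst, the activin and myostatin inhibitor follistatin, had normalized counts of 21, 21 and 19 in control against 69, 34 and 51 in Taf4asKO (log2 fold change 1.24, SE 0.31, adjusted p = 0.0262). Ccnd1, the cell cycle gene for cyclin D1, had 2979, 3586 and 2741 and then 1694, 2330 and 1985 (log2 fold change -0.63, SE 0.14, adjusted p = 0.0156). Wisp1, which encodes a matricellular protein, had a log2 fold change of -0.53 (adjusted p = 0.0461). In each of these 3 genes the groups did not overlap. The remaining 17 targets, Myc (0.25) and Lgr5 (0.80) among them, were not called. The pairing raised the count to 8, with 4 higher and 4 lower (34.8%, beside 18.1% of all genes), by adding Fosl1 (log2 fold change -0.99, adjusted p = 0.0392) and Sox9 (0.52, adjusted p = 0.0221). The target counts fell to 0 in both directions without Taf4asKO replicate 1 or 3, beside 6.98% and 5.17% of all genes called in those fits. The lower calls fell to 1 without Taf4asKO replicate 2 or control replicate 3, beside 3.35% and 5.86% of all genes. With 23 genes these counts do not set the targets apart.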

How the data were processed

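RNA-seq of 6 libraries was used, 3 labelled Control and 3 labelled Taf4asKO, made with a stranded low-input total RNA kit. According to the study's methods and the submitters' processing notes, the authors trimmed reads with Trimmomatic 0.39, aligned them to mm10 with STAR 2.6.0c, removed reads mapping to several places, counted exon reads with featureCounts 1.6.0, left out reads overlapping several genes and normalized with DESeq2 1.14.1. The strand setting of the counting is not given in the sources used here. The deposited values are a score, not raw counts: counts divided by a size factor and rounded to whole numbers, as the values show. The table held 0 value columns without a sample. Because raw counts were not used, no count model was run.

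Genes with a mean of at least 5 went into limma 3.58.1, run in R 4.3.3 (intensity trend, two-sided, no covariate) on log2(value + 1), a scale that understates changes of low genes, with Benjamini-Hochberg adjustment over 18562 genes. A call needed an adjusted p under 0.05 and a fold of at least 1.3, limits that follow the study's methods. Scripts were tested on simulated data. Libraries within groups differed beyond sampling noise (with a chi-square of 3.89 to 42.2 for each degree of freedom), so each counted as 1 replicate. Replicate numbers come from the sample titles. Deviations from group means correlated at 0.235, 0.126 and 0.15 across genes between equal numbers, and at -0.149 to 0.0141 between unequal ones. Centring within each group ties these correlations to one another, so they cannot establish a pairing. The labels do not state one either. A fit with the number as a block was made as an alternative only, and its pairing rests on the same values.

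Exon lengths and overlaps came from GENCODE M21 (mm10), which held all 49 members, 37 of them with the same start, end and strand. Exons of 14 members overlap a gene on the opposite strand. Promoter windows came from RefSeq (GRCm38.p6), and no sequence is shown for genes on chromosome 18. Values by library are given for every called member and the highest member of each role by mean or by level per kb. Other genes with values were chosen after their values were seen, as was the split at a mean of 100. For the Schwann cell list, 2 further markers are not reported here. The members and lists were chosen with earlier results of these data known. Alternatives were the block, upper-quartile, total-count and trimmed-mean scaling, limma-voom, pseudocounts, filters, fold and p limits, and leaving out each library. Figures were drawn with matplotlib 3.10.9.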

Additional observations from a re-analysis of the deposited data

How the results depend on the processing

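Of the 8 calls, Fzd8 held in 17 of 17 alternatives, Fzd1, Axin2 and Sfrp1 in 13, Lrp6, Ctnnb1 and Nkd1 in 9 and Znrf3 in 8. Of 821 single-member values, 748 kept direction and call, 45 lost a call, 4 gained one and 24 changed sign, none of them a called value. With the replicate block (libraries paired by number) the members gave 10 calls, 2 of them lower, other pathway genes 6 lower and all genes 1688 higher, and the block changed no member's call besides Wnt4 and Fzd9. Upper-quartile scaling gave 5 member calls, 4 higher, and total-count scaling and limma-voom each gave 0 lower. A fold limit of 2 left 2 members (2 higher, 0 lower), 0 other pathway genes in either direction, 1 target higher and 0 lower, and 330 genes higher and 520 lower overall. An adjusted p limit of 0.01 left 1 member (1 higher, 0 lower), 1 other pathway gene in each direction, 0 targets in either direction, and 331 genes higher and 545 lower. Leaving out 1 library gave 1 to 7 member calls (1 to 6 higher, 0 to 1 lower), 1 to 6 other pathway genes higher and 1 to 4 lower, 0 to 2 targets higher and 0 to 3 lower, and 341 to 1616 genes higher and 595 to 1505 lower. Fewer libraries were fitted there, and the cause of the other changes was not tested.

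Sign changes were limited to genes with log2 fold changes near 0 or low counts. Fzd3 was -0.016 under upper-quartile scaling and Rspo1 0.12 with a pseudocount of 0.1. With 1 library left out, values ranged from -0.57 to 0.28 in Wnt16, -0.28 to 0.13 in Wnt2b, -0.32 to 0.12 in Wnt6, -0.31 to 0.87 in Wnt10a, -0.024 to 0.51 in Wnt5b, -0.11 to 0.38 in Fzd2, -0.085 to 0.20 in Fzd3, -0.014 to 0.26 in Fzd4, -1.04 to 0.69 in Rspo1, -0.59 to 0.085 in Rspo3 and -0.025 to 0.64 in Rnf43. All 14 members with a mean under 30 had a 95% interval that reached beyond a 2-fold change in at least 1 direction, so smaller differences were not detectable there.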
